A study of Mus musculus with 9 samples.

Results

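The genes described here are 36 genes of the cell division cycle, taken by name from the deposited count tables of 23366 entries. Of these, 13 act in DNA replication and S-phase entry and 23 act in G2 and mitosis, and all 36 were found in the tables and passed the filter on low counts in every comparison. They were measured by RNA-seq in mouse cell lines grown as monolayers. The line mSGc is a spontaneously immortalized epithelial line grown out of the submandibular salivary gland of adult male C57BL/6 mice, and 1 library was made at each of passages 2, 4, 10 and 25 (P2 to P25) in serum-free medium (SFM) and 1 at each of passages 10 and 25 in serum-containing medium (SCM). The comparison line IMOK is a line of immortalised mouse oral keratinocytes, labelled as early passage, and its 3 libraries share 1 growth condition named IMOK media. The labels name the mSGc media Progenitor and Differentiating, and these were taken to be SFM and SCM. By the study's methods SFM holds EGF, FGF, N2 supplement, insulin and dexamethasone without serum, whereas SCM holds serum, retinoic acid, EGF, triiodothyronine, hydrocortisone, insulin, transferrin and selenite, so the media differ in more than serum. The labels name no engineered allele and no added drug for either line, and do not say how IMOK was immortalised. No label says that the IMOK libraries came from separate cultures, so p-values measure only the spread between these libraries.

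Each mSGc condition is 1 library, so no single passage or medium has a replicate check, and in the comparison of the lines the cell line, the medium and the experiment cannot be told apart. Total gene counts ran from 6237884 to 18444963 per library, and the 36 genes took between 0.24% (P10 in SFM) and 0.808% (P25 in SCM) of them. Levels are given as TPM, computed here from the counts, the library totals and the deposited gene lengths, so that they can be compared between genes. Differences between libraries are log2 ratios of counts per library size after TMM scaling (CPM). Basal keratinocyte markers were abundant in both lines, with a summed level of Krt5, Krt14, Trp63, Epcam, Cdh1 and Sfn of 9705 to 21050 TPM in mSGc and 9390 to 10230 TPM in IMOK. The 8 fibroblast markers summed to at most 23.1 TPM in mSGc, reached at P2, and the leukocyte markers Ptprc, Cd3e, Csf1r and Tyrobp lay at or under 3 counts in every library.

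IMOK replicate 1 stood apart from replicates 2 and 3. A chi-square statistic of the counts over genes, divided by its degrees of freedom, was 150 and 180 between replicate 1 and the other libraries and 21.3 between replicates 2 and 3. Results on these 36 genes that rest on IMOK are therefore given with and without replicate 1.

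Dividing cells switch these genes on in waves. Before S phase, E2F transcription factors released from the retinoblastoma protein drive genes for the replicative helicase, nucleotide supply and cyclin E. Later, the MuvB complex with B-Myb and FoxM1 drives the genes for cyclin B, the mitotic kinases and the spindle, through promoter elements called the cell cycle genes homology region (CHR) and the CCAAT box, while CDK inhibitors hold both waves back. In bulk RNA, fewer dividing cells and less of a transcript in each dividing cell cannot be told apart.

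The promoters of 30 of the 36 genes (11 replication, 19 mitotic) were matched by symbol in a RefSeq table of the build GRCm38.p6. In the 250 bases before the start site, a CHR (TTTGAA or TTTAAA, both strands) stood in 12 of 19 mitotic promoters (63.2%) and in 2 of 11 replication promoters (18.2%), against 28.1% of all promoters in the table. CCAAT boxes (CCAAT, both strands) stood in 17 mitotic (89.5%) and 7 replication promoters (63.6%), against 37.5% of all. An E2F element (TTTCCCGC, TTTGGCGC or TTTCGCGC, both strands) stood in 3 replication promoters (27.3%) and in 1 mitotic promoter (5.26%), against 1.78% of all. CHR and CCAAT together stood in 11 mitotic promoters (57.9%) and 1 replication promoter (9.09%), against 10.1% of all. Among promoters of genes tested between the lines the shares were 20.5% for CHR, 40.9% for CCAAT, 3.51% for E2F and 8.0% for CHR with CCAAT. These are letter matches and not measured binding sites. The last 150 bases before the start site are shown for 6 genes, because these are the promoters of genes whose values are given in full with 3 promoters of mitotic and 3 of replication genes. Capitals mark the matches. The positions were Ccnb1 chr13:100786487-100786636 (minus strand), Cdk1 chr10:69352913-69353062 (minus), Top2a chr11:99024190-99024339 (minus), Mcm2 chr6:88898781-88898930 (minus), E2f1 chr2:154569427-154569576 (minus) and Cdc6 chr11:98908001-98908150 (plus).
Ccnb1: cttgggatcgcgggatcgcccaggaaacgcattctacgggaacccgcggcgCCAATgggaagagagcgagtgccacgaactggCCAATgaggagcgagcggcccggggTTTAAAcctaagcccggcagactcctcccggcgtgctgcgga
Cdk1: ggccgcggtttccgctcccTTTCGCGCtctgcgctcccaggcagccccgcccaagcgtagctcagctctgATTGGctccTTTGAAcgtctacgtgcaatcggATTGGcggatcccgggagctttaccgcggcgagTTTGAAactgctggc
Top2a: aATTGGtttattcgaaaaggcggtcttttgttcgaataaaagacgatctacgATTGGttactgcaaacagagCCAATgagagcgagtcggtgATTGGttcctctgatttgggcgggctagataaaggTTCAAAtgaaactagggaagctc
Mcm2: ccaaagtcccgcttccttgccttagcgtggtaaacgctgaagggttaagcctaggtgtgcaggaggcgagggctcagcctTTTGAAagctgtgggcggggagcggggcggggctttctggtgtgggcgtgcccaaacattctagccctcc
E2f1: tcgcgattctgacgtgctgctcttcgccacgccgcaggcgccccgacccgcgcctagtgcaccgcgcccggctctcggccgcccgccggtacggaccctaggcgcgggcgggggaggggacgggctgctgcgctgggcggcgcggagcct
Cdc6: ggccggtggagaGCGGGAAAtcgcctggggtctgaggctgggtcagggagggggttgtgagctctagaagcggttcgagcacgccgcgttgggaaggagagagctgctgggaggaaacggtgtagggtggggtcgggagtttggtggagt
Ccnb1, Cdk1 and Top2a each carried CHR and CCAAT matches within these bases, Cdk1 also carried an E2F match, Mcm2 carried a CHR match, Cdc6 carried an E2F match alone, and the E2f1 stretch carried none of the 3. With its CCAAT match further upstream, Mcm2 was the 1 replication promoter with both CHR and CCAAT.

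Across all 9 libraries the 36 genes were detected, with the fewest reads for Ccne2 in IMOK replicate 1 at 10 counts. As a group the replication genes were lowest in P10 SFM among the mSGc libraries and in replicate 1 among IMOK. The mean log2(TPM + 1) of the 13 replication genes was 5.58 at P2, 6.25 at P4, 4.79 at P10 and 6.46 at P25 in SFM, with 5.61 at P10 and 6.59 at P25 in SCM. In IMOK it was 4.60, 6.57 and 6.77 in replicates 1, 2 and 3. The 23 mitotic genes averaged 5.45, 5.98, 5.11 and 6.51 at the 4 passages in SFM, 5.79 and 6.89 at P10 and P25 in SCM, and 5.89, 6.94 and 6.82 in IMOK. Both groups therefore ranked P10 SFM lowest and P25 SCM highest within mSGc, with a range of 1.80 for replication and 1.78 for mitotic genes, and IMOK replicates 2 and 3 lay close to the P25 SCM level.

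**Figure D1:**
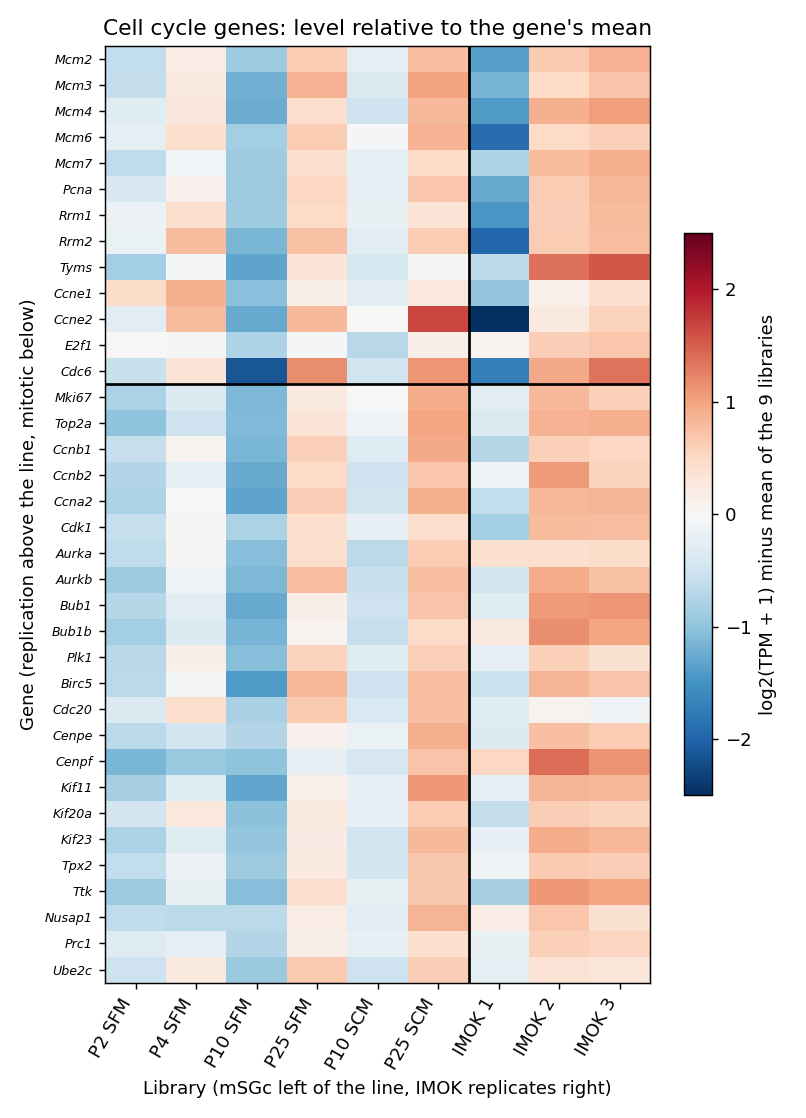
Level of each of the 36 genes (vertical axis, replication genes above the line) in the 9 libraries (horizontal axis) as log2(TPM + 1) minus the gene's mean over the libraries. By group mean, IMOK 1 and P10 SFM are the lowest columns for the replication genes, and P10 SFM and P2 SFM for the mitotic genes. Both P25 columns and IMOK 2 and 3 are red for most genes.

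**Figure D2:**
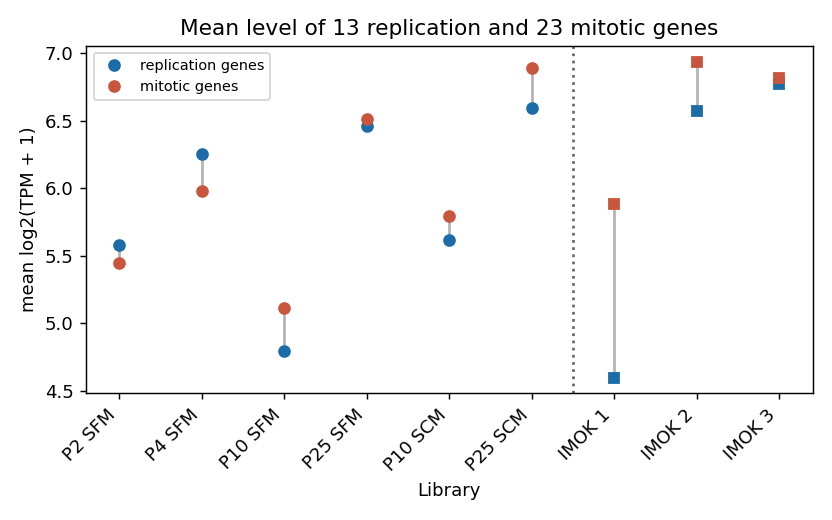
Mean log2(TPM + 1) of the 13 replication genes (blue) and the 23 mitotic genes (red) in each library, with circles for mSGc, squares for IMOK and a grey line joining the 2 means. In IMOK 1 the mean of the replication genes lies 1.29 below that of the mitotic genes, while in the mSGc libraries the difference of mitotic minus replication runs from -0.27 to 0.32.

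Among the replication genes, those of licensing and the helicase varied several-fold between the libraries. Cdc6, which loads the helicase at origins, was among the lowest, at 5.71 (P2), 11.6 (P4), 1.25 (P10) and 21.1 TPM (P25) in SFM, 6.05 (P10) and 20.3 TPM (P25) in SCM, and 2.02, 18.03 and 24.3 TPM in IMOK replicates 1, 2 and 3, an order kept for the other genes. Mcm2, a subunit of the replicative helicase, was at 52.4, 91.9, 42.4 and 126 TPM in SFM, 68.9 and 136 TPM in SCM, and 30.9, 126 and 148 TPM in IMOK. Mcm6, another helicase subunit, was at 102, 163, 66.1 and 189 TPM in SFM, 119 and 221 TPM in SCM, and 31.4, 170 and 182 TPM in IMOK. For all of these genes P10 SFM was the lowest mSGc library, and IMOK replicate 1 lay far under the other IMOK libraries, which fell within or close to the mSGc range. Mcm3, Mcm4 and Mcm7, the remaining subunits in the set, had medians of 91.8, 75.2 and 138 TPM over the mSGc libraries and the same lowest library.

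Pcna, the sliding clamp of DNA polymerase, was the most abundant of the 36 genes in every library but IMOK replicate 1, where Ube2c was higher. It stood at 317, 449, 220 and 596 TPM in SFM, 358 and 673 TPM in SCM, and 173, 648 and 744 TPM in IMOK. Rrm2, the regulated subunit of ribonucleotide reductase, was at 127, 248, 64.1 and 237 TPM in SFM, 118 and 224 TPM in SCM, and 35.9, 222 and 245 TPM in IMOK. Rrm2 and its partner Rrm1 were about as high at P4 as at P25, and Rrm1 ran from 85.8 to 227 TPM in mSGc. Tyms, the thymidylate synthase, was at 17.4, 31.5, 12.2 and 40.3 TPM in SFM, 23.2 and 32.5 TPM in SCM, and 20.1, 85.0 and 95.3 TPM in IMOK. All 6 mSGc libraries lay below IMOK replicates 2 and 3 for Tyms, but replicate 1 fell inside the mSGc range.

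The genes of S-phase entry were the least alike. Ccne1, encoding cyclin E1, was highest in mSGc at the early passages, at 35.4, 48.2, 11.8 and 28.5 TPM in SFM, 20.9 and 30.9 TPM in SCM, and 12.5, 28.2 and 34.3 TPM in IMOK. Ccne2, encoding cyclin E2, was at 5.70, 13.02, 2.37 and 13.2 TPM in SFM, 7.17 and 24.8 TPM in SCM, and 0.365, 8.65 and 11.1 TPM in IMOK. Of the exon bases of Ccne2, 53.9% overlap Ints8 on the opposite strand, and since the strand setting of the counting is not stated its values are uncertain. E2f1, a transcription factor that opens S phase, varied least of the 13, at 18.1, 17.6, 10.3 and 17.9 TPM in SFM, 10.9 and 20.7 TPM in SCM, and 19.7, 28.6 and 30.1 TPM in IMOK.

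The mitotic genes ranked the libraries much as the replication genes did, with a smaller gap within IMOK. Mki67, the proliferation marker that coats mitotic chromosomes, was at 40.5, 56.2, 31.9 and 84.3 TPM in SFM, 70.4 and 137 TPM in SCM, and 57.9, 126 and 108 TPM in IMOK. Top2a, the topoisomerase that untangles sister chromatids, was at 88.3, 125, 82.6 and 225 TPM in SFM, 168 and 355 TPM in SCM, and 139, 328 and 338 TPM in IMOK. For both genes SCM was above SFM at P10 and at P25. Ccnb1, encoding cyclin B1, was at 92.0, 146, 62.1 and 210 TPM in SFM, 110.0 and 269 TPM in SCM, and 84.0, 211 and 199 TPM in IMOK. Cdk1, its kinase, was at 91.6, 139, 79.0 and 181 TPM in SFM, 119 and 187 TPM in SCM, and 75.8, 238 and 237 TPM in IMOK. The 2 P25 libraries differed little for Cdk1, and both lay under IMOK replicates 2 and 3.

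Cdc20, which activates the anaphase-promoting complex, was at 90.1, 158, 65.7 and 182 TPM in SFM, 89.2 and 197 TPM in SCM, and 94.2, 123 and 108 TPM in IMOK. The P25 and P4 libraries were above all 3 IMOK libraries for Cdc20. Cenpf, a kinetochore protein of G2 and M, was at 9.82, 11.6, 11.01 and 19.2 TPM in SFM, 17.0 and 38.3 TPM in SCM, and 33.5, 62.4 and 51.5 TPM in IMOK. Bub1b, a kinase-like protein of the spindle checkpoint, was at 29.9, 42.6, 23.8 and 58.7 TPM in SFM, 36.7 and 76.5 TPM in SCM, and 64.9, 124 and 109 TPM in IMOK. Only P25 SCM reached IMOK replicate 1 for either gene, and no mSGc library reached replicates 2 and 3. Aurka, the Aurora kinase of the spindle poles, was nearly level in IMOK (95.4, 97.6 and 99.3 TPM) and ran from 34.0 TPM in P10 SFM to 114 TPM in P25 SCM. The remaining 15 mitotic genes, from the cyclins Ccnb2 and Ccna2 through the kinases Aurkb, Bub1, Plk1 and Ttk to the spindle proteins Kif20a, Kif23, Tpx2 and Prc1, had their highest mSGc level at P25 in each case. Ube2c, the ubiquitin-conjugating enzyme of the anaphase-promoting complex, was the most abundant of the 23 in every mSGc library, between 130.1 and 393 TPM there and between 211 and 321 TPM in IMOK. Bub1, a checkpoint kinase, spanned 12.3 to 51.4 TPM in mSGc, with 24.95, 65.8 and 67.5 TPM in IMOK. Birc5, the survivin of the chromosomal passenger complex, had the steepest ratio of P25 to P10 in SFM among the mitotic genes, at 15.5 and 77.6 TPM. For Kif20a, Ccna2 and Nusap1, part of the exon bases (28.6%, 13.4% and 7.03%) overlap Cdc23, Exosc9 and Oip5, which limits these values in the same way as for Ccne2.

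With every mSGc passage pooled against IMOK, edgeR's quasi-likelihood test called none of the 36 genes in either direction (adjusted p under 0.05). Over 12885 genes tested, 6.58% were called higher and 8.3% lower in mSGc. The paper instead used its P10 mSGc data here, and states that IMOK was analysed at that same passage. With the P10 mSGc libraries only, edgeR called 1 of the 36 genes, Aurka, lower (log2 fold change -1.15, adjusted p = 0.0482). The shares of all genes given above belong to the fit of all 6 mSGc libraries, and none is set beside this count. With all 6 mSGc libraries, 3 of the 36 genes passed the looser unadjusted p under 0.05, all lower in mSGc. The 8.3% of all genes called lower had passed the stricter adjusted cutoff, so this count does not stand out. The 3 were Cenpf with a log2 fold change of -1.25 (SE 0.43, edgeR adjusted p = 0.0778), Bub1b with -0.93 (SE 0.39, adjusted p = 0.142) and Tyms with -1.14 (SE 0.51, adjusted p = 0.164). DESeq2's Wald test called 1 gene, Cenpf, a count not set against all genes in that fit. The median log2 fold change was -0.03 over the replication genes and -0.28 over the mitotic genes, of which 20 of 23 lay below 0, against 0.00 over all genes tested.

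The spread among the libraries was wide against these differences, with a median standard error of 0.47 on the log2 scale over the 36 genes. In CPM, 0 of the 36 genes had every mSGc library above every IMOK library (9.7% of all genes) and 0 had every mSGc library below every IMOK library (11.1%). Against IMOK replicates 2 and 3 alone, 8 genes had every mSGc library below (Mcm7, Tyms, E2f1, Cdk1, Bub1, Bub1b, Cenpf and Ttk), a share of 22.2% against 18.1% of all genes, and 0 had every mSGc library above (17.8%). In TPM, without TMM factors, 12 genes had every mSGc library below, against 25.3% of all genes. The medians depended on single IMOK libraries, and that of the replication genes turned from -0.48 without replicate 1 to 0.40 without replicate 3. Without replicate 1 the median of the mitotic genes was -0.60, 33 of 36 genes lay below 0, and edgeR called 1 gene, Tyms, at -1.59 (adjusted p = 0.0353), while Cenpf was at -1.50 (adjusted p = 0.0614) and Bub1b at -1.20 (adjusted p = 0.0824). With DESeq2 on the same libraries, an alternative added after seeing the data, 3 genes were called lower in mSGc: Cenpf, Bub1b and Tyms. The counts called without replicate 1 are not set against the share of all genes called in those fits.

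IMOK replicate 1 was the lowest of the IMOK libraries for 36 of 36 genes, where 41.6% of all genes had it lowest. It lay at least 2-fold below both other replicates for 25 genes, 12 of 13 replication and 13 of 23 mitotic, against 8.27% of all genes. Of the replication genes only E2f1 stayed under a 2-fold difference. The log2 ratio of replicate 1 to the mean of replicates 2 and 3 had a median of -2.34 over the replication genes, from -4.74 for Ccne2 to -0.75 for E2f1. Over the mitotic genes the median was -1.24, from -2.11 for Ttk, a kinase of the spindle checkpoint, to -0.22 for Aurka. Over all genes the median was 0.06. The ratio of replicate 2 to replicate 3 had a median of -0.24 for replication and 0.03 for mitotic genes.

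**Figure D3:**
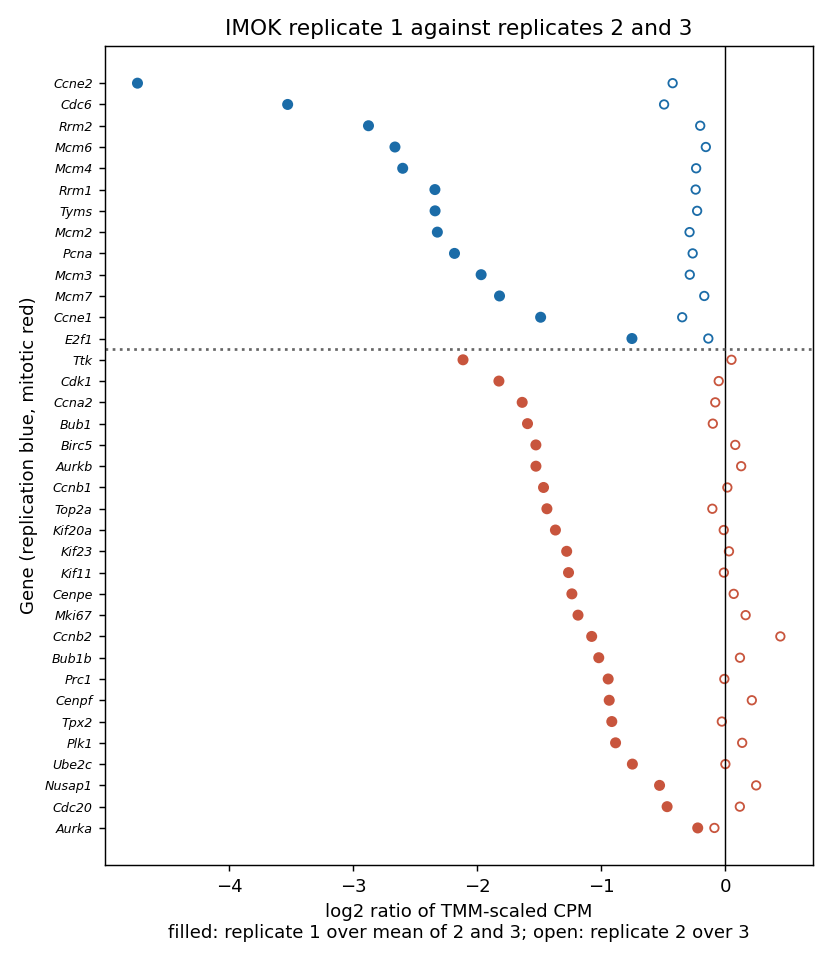
Log2 ratio of CPM after TMM scaling (horizontal axis) for each gene (vertical axis), replication genes in blue and mitotic genes in red. Filled points give IMOK replicate 1 over the mean of replicates 2 and 3 and lie below 0 for 36 of 36 genes, while open points give replicate 2 over replicate 3 and lie between -0.49 and 0.44.

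The drop in replicate 1 was uneven between the 2 groups. The mean log2(TPM + 1) of mitotic minus replication genes was 1.29 in replicate 1 against 0.37 and 0.05 in replicates 2 and 3, and the difference between replicate 1 and the mean of the others was 1.08. Genes outside the 36 showed the same order, with 35 other replication genes (such as Mcm5) at a median ratio of -1.85, all 35 below 0, and 41 other mitotic genes at -1.11, with 40 of 41 below 0. Cd68, a lysosomal protein used as a macrophage marker, was at 33.4 TPM in replicate 1 against 8.74 and 4.58 TPM in the others, while Ptprc, Cd3e, Csf1r and Tyrobp were at or near 0. The fibroblast markers summed to 6.71 TPM in replicate 1 and 1.34 and 1.35 TPM in the others. Most of the sum in replicate 1 was Col1a1 (5.245 TPM against 0.395 and 0.345 TPM). Col1a2, Pdgfra and Pdgfrb were also higher there, at 0.685, 0.435 and 0.304 TPM, while Col3a1 and Dcn were lower. The part of Cd68 and of the fibroblast markers in the result was not tested. This is 1 library against a pair and carries no test.

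Within mSGc, most of the 36 genes were lowest at P10 in SFM and highest at P25. In CPM after TMM scaling, P10 SFM was the lowest mSGc library for 31 genes, 12 of 13 replication and 19 of 23 mitotic, against 19.0% of all genes. The exceptions in CPM were E2f1, Top2a, Cenpe, Cenpf and Nusap1, and in TPM they were Cenpf and Nusap1 alone. Both P25 libraries lay above both P10 libraries for 36 of 36 genes (28.0% of all genes), and above all 4 other mSGc libraries for 32 (15.3%), the exceptions being Rrm1, Rrm2, Tyms and Ccne1, while in TPM the count was 31. From P2 to P4 the median log2 ratio was 0.88 for replication and 0.73 for mitotic genes, from P4 to P10 in SFM it was -1.47 and -1.11, and from P10 to P25 in SFM it was 1.78 and 1.67. From P10 to P25 in SCM it was 1.10 and 1.33. Levels thus went up, down and up again over the passages in SFM. P10 SFM had 8891878 counts and P25 SCM had 6237884, so the highest and the lowest library for these genes were the 2 with the fewest counts.

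In the fit per doubling of passage number with medium as a covariate, 0 of the 36 genes were called in either direction, against 0.0482% of 12451 genes called higher and 0.442% lower. At an unadjusted p under 0.05 there were 5 genes, all mitotic and all higher with passage, a count not set against all genes at that cutoff. The smallest p-values belonged to Cenpf, with a log2 fold change per doubling of 0.36 (SE 0.12, edgeR adjusted p = 0.273), to Nusap1, a spindle protein, with 0.34 (SE 0.13, adjusted p = 0.305), and to Top2a, with 0.41 (SE 0.15, adjusted p = 0.306). The slope was above 0 for 35 of 36 genes, with Ccne1 the exception at -0.09 (SE 0.21). The median slope was 0.27 for replication and 0.33 for mitotic genes, against 0.00 over all genes, and these fell to 0.04 and 0.16 without P25 SFM. DESeq2 likewise called 0 of the 36.

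The comparison of SCM with SFM, the growth conditions the study set side by side, called 0 of the 36 genes, with 0.0241% of 12451 genes called higher and 0.0% lower by edgeR. None had an unadjusted p under 0.05, and DESeq2 called 0 as well. The smallest p-values were those of Cenpf (log2 fold change 0.51, SE 0.37, edgeR adjusted p = 0.819), Cenpe, a kinetochore motor (0.36, SE 0.38, adjusted p = 0.888) and Kif11, the motor that separates the spindle poles (0.51, SE 0.55, adjusted p = 0.893). The median was -0.24 over the replication genes and 0.01 over the mitotic genes, and neither had a stable direction. With single libraries left out they ran from -0.60 to 0.41 and from -0.45 to 0.48, lowest in both cases without P25 SCM. In the fit of P10 and P25 alone with passage as a block, the medians were 0.29 and 0.39 and again 0 genes were called.

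At P10 nearly all of the genes were higher in SCM, while at P25 the direction of the replication genes depended on the scaling. At P10 the log2 ratio of SCM to SFM was above 0 for 12 of 13 replication genes (median 0.66) and 23 of 23 mitotic genes (median 0.46). At P25 it was above 0 for 4 of 13 replication genes (median -0.07) and 17 of 23 mitotic genes (median 0.17). SCM was above SFM at both passages for 20 genes, 3 replication (Mcm4, Mcm6 and Ccne2) and 17 mitotic, against 27.4% of all genes, and below SFM at both for 0, against 30.3%. These counts are in CPM after TMM scaling. In TPM the median over all genes tested shifted up, to 0.13 at P10 and 0.12 at P25, and SCM was above SFM at P25 for 9 of 13 replication genes (median 0.12) and 20 of 23 mitotic genes (median 0.35). In TPM 29 of the 36 genes had SCM above SFM at both passages, against 42.8% of all genes. Cdc6 had the largest ratio at P10, 2.09, and lay at -0.24 at P25. Kif11 was at 21.0 and 45.8 TPM in SFM and SCM at P10 and at 58.0 and 113 TPM at P25, and Mki67 and Cenpf likewise had SCM above SFM at both.

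**Figure D4:**
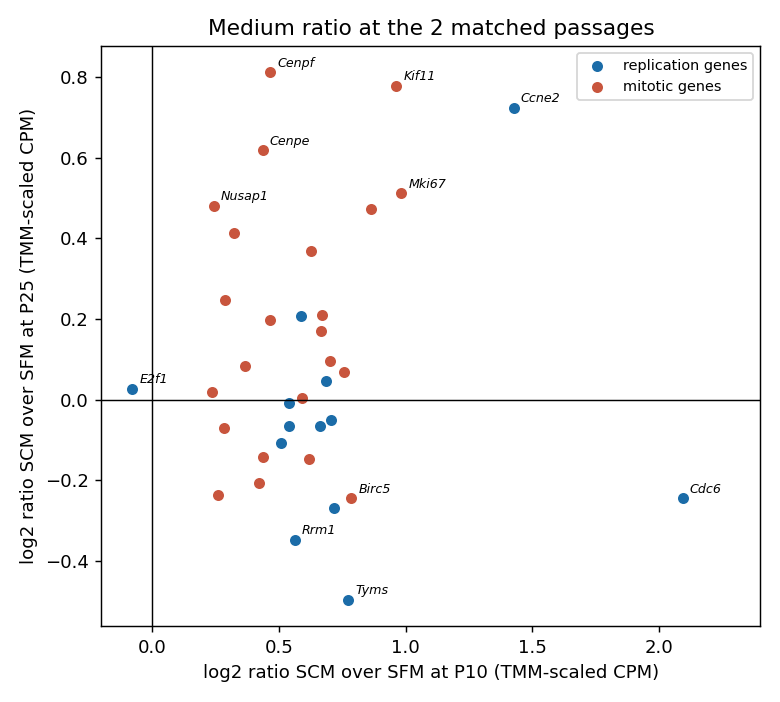
Log2 ratio of SCM over SFM in CPM after TMM scaling at P10 (horizontal axis) and at P25 (vertical axis) for the 13 replication genes (blue) and the 23 mitotic genes (red), 1 library per condition. All but E2f1 lie right of 0, while 9 of 13 replication and 6 of 23 mitotic genes lie below 0 at P25, against 4 and 3 in TPM.

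Among the regulators of these genes, some CDK inhibitors were called between the lines. Cdkn1a, encoding the CDK inhibitor p21, was at 592, 415, 389 and 207 TPM in SFM, 410 and 177 TPM in SCM, and 49.1, 46.8 and 25.1 TPM in IMOK. All mSGc libraries were above all IMOK libraries, with a difference of 3.39 on the log2 scale (SE 0.41, edgeR adjusted p = 0.000915), or 3.49 without IMOK replicate 1 (adjusted p = 0.00385). Cdkn2a, whose locus encodes the p16 and ARF proteins and whose gene-level counts do not separate them, was at 90.0, 75.2, 54.2 and 18.2 TPM in SFM, 35.2 and 14.9 TPM in SCM, and 423, 204 and 180 TPM in IMOK. It was lower in mSGc, with a log2 fold change of -2.25 (SE 0.50, edgeR adjusted p = 0.0160), a call that was lost without IMOK replicate 1 (-1.86, adjusted p = 0.0521). Cdkn2b, encoding the related inhibitor p15, was at 92.5, 48.7, 59.9 and 20.4 TPM in SFM, 57.1 and 18.5 TPM in SCM, and 211, 80.0 and 68.1 TPM in IMOK, with -1.05 (SE 0.47, adjusted p = 0.159), or -0.46 without IMOK replicate 1. IMOK replicate 1, lowest of IMOK for the 36 genes, was the highest IMOK library for Cdkn2a and Cdkn2b.

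Over the 7 CDK inhibitors tested between the lines, 1 was called higher and 1 lower, against 6.58% and 8.3% of all genes. Cdkn1b, encoding p27, lay between 29.0 and 90.6 TPM in mSGc and between 41.8 and 69.6 TPM in IMOK, a log2 difference of 0.21 (SE 0.35, edgeR adjusted p = 0.736), or 0.34 without IMOK replicate 1. Over passages Cdkn2a had a slope of -0.58 per doubling (SE 0.12, adjusted p = 0.109), Cdkn1a -0.37 (SE 0.10, adjusted p = 0.185) and Cdkn2b -0.51 (SE 0.14, adjusted p = 0.194). DESeq2 called all 3, with adjusted p from 0.00123 to 0.0273. In edgeR Cdkn2a and Cdkn2b were called without P10 SFM (adjusted p = 0.0401 and 0.0486), and Cdkn2a with untransformed passage number (adjusted p = 0.0372). The 2 P25 libraries, highest for most of the 36 genes, were the lowest of mSGc for Cdkn2a, Cdkn1a and Cdkn2b. The other inhibitors in this fit had slopes above 0, and the main edgeR fit called none of them. Cdkn1c had an adjusted p under 0.05 in at least 1 alternative fit, again with a slope above 0. In the main fit the slopes of these inhibitors were 0.76 for Cdkn1c (SE 0.22, edgeR adjusted p = 0.209), 0.23 for Cdkn1b (SE 0.099, adjusted p = 0.387) and 0.22 for Cdkn2c (SE 0.17, adjusted p = 0.636). The inhibitors thus had no common direction over passage.

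**Figure D5:**
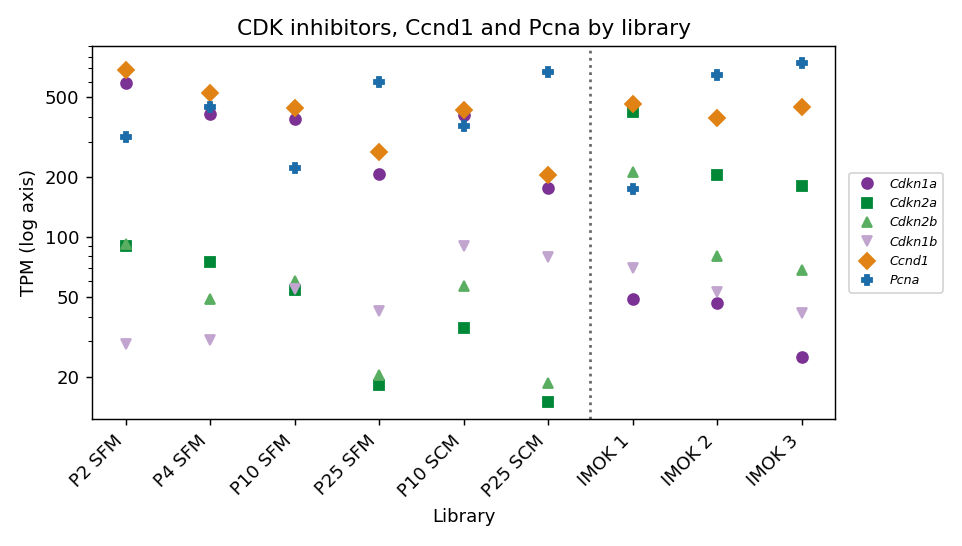
Level in TPM on a log axis (vertical) of the CDK inhibitors Cdkn1a, Cdkn2a, Cdkn2b and Cdkn1b, of Ccnd1 and of Pcna in each library (horizontal axis). Cdkn1a lies at 177 TPM or above in mSGc and at 49.1 TPM or below in IMOK, and within mSGc Cdkn1a, Cdkn2a, Cdkn2b and Ccnd1 are lowest at P25.

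Among the 7 cyclins and kinases of G1, none was called between the lines. Ccnd1, encoding cyclin D1, was at 687, 528, 442 and 267 TPM in SFM, 435 and 204 TPM in SCM, and 464, 397 and 448 TPM in IMOK, a log2 difference of 0.17 (SE 0.32, edgeR adjusted p = 0.769), or 0.15 without IMOK replicate 1. Its slope over passage was -0.35 per doubling (SE 0.10, adjusted p = 0.202), opposite in sign to that of 35 of the 36 genes, and DESeq2 called it (adjusted p = 0.00857). Ccnd2, encoding cyclin D2, spanned 255 to 696 TPM in mSGc against 247 to 269 TPM in IMOK (log2 difference 0.94, SE 0.29, edgeR adjusted p = 0.0570), and DESeq2 called it higher. Without IMOK replicate 1 it was at 0.89.

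Of the 18 E2F, retinoblastoma and MuvB regulators, 2 were called higher and 2 lower in mSGc, against 6.58% and 8.3% of all genes. E2f2, an activator E2F, was higher, at 3.97 to 21.4 TPM in mSGc and 1.21 to 3.94 TPM in IMOK (log2 fold change 2.35, SE 0.54, edgeR adjusted p = 0.0177), and its call was lost without IMOK replicate 3 (2.43, adjusted p = 0.0619). Rbl2, encoding the pocket protein p130 of quiescent cells, was higher by 0.81 (SE 0.24, adjusted p = 0.0486). E2f6, a repressor E2F, was lower at -0.73 (SE 0.21, adjusted p = 0.0405), as was Lin54, the MuvB subunit that binds the CHR, at -0.89 (SE 0.27, adjusted p = 0.0488). Foxm1 was at 10.4 to 49.8 TPM in mSGc and 35.7 to 78.6 TPM in IMOK (-0.93, SE 0.48, adjusted p = 0.224). Mybl2, encoding B-Myb, was at 11.7 to 54.0 TPM in mSGc and 16.1 to 57.9 TPM in IMOK (-0.05, SE 0.59, adjusted p = 0.968). Without IMOK replicate 1, E2f2 was at 1.97, Rbl2 at 0.77 with its call lost (adjusted p = 0.104), E2f6 at -0.82, Lin54 at -1.15 and Foxm1 at -1.25, and Mybl2 went to -0.45. The calls of E2f6, Rbl2 and Lin54 were lost in 10, 14 and 9 of 18 alternatives, leaving out single libraries among them.

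Of 41 other mitotic genes, 2 were called higher and 1 lower in mSGc, against 6.58% and 8.3% of all genes. Of 35 other replication genes, 0 were called by edgeR and 2 were called lower by DESeq2, a count not set against all genes in that fit. At an unadjusted p under 0.05 there were 5 of the 35, all lower, a count not set against all genes at that cutoff. Psrc1, a microtubule protein of the spindle, was at 72.2 to 120 TPM in mSGc and 28.4 to 43.4 TPM in IMOK (log2 fold change 1.63, SE 0.21, edgeR adjusted p = 0.00129). Gtse1, a G2 protein that binds microtubules and p53, was at 48.2 to 71.5 TPM in mSGc and 18.6 to 30.9 TPM in IMOK (1.49, SE 0.25, adjusted p = 0.00389). Both are known p53 targets. Pttg1, the securin that holds separase in check, was at 20.3 to 35.7 TPM in mSGc and 59.3 to 112 TPM in IMOK (-1.64, SE 0.23, adjusted p = 0.00208). For these 3 genes the lines did not overlap, but the genes were picked by their calls, which favours this. The lines overlapped for 36 of the 36 genes described above, which are not a like set for this reason. Of all genes, 9.7% had every mSGc library above every IMOK library and 11.1% had every one below. The calls of Gtse1 and Pttg1 were lost with the P10 mSGc libraries alone (adjusted p = 0.0866 and 0.0961), and that of Psrc1 held in 18 of 18 alternatives. Without IMOK replicate 1 all 3 were called, with log2 fold changes of 1.57 for Psrc1, 1.26 for Gtse1 and -1.91 for Pttg1. None of the 7 checkpoint and APC/C regulators was called, and none had an unadjusted p under 0.05.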

How the data were processed

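RNA-seq libraries of 6 mSGc and 3 IMOK samples were analysed. Per the labels, TruSeq libraries were made from total RNA. The submitters' processing notes name the build mm9, TopHat2 2.1.1, Bowtie2 2.2.6, featureCounts 1.5.1 and DESeq2 1.12.4, and the authors deposited raw counts of reads per gene with no normalization, in 2 tables with the length of each gene. The annotation, the strand setting and the handling of reads with several matches are not given in the sources used here. Of the 36 genes, Tyms has a pseudogene row (Tyms-ps) at no more than 0.473 TPM.

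Samples were grouped by the labels. TPM was computed from the counts and lengths, and scores used a pseudocount of 1 TPM. Counts were tested in R 4.3.3 with edgeR 4.0.16 (quasi-likelihood test, TMM, default filterByExpr, Benjamini-Hochberg over all genes tested, threshold 0.05), and every adjusted p is edgeR's unless another tool is named. One fit set the 6 mSGc libraries against the 3 IMOK libraries over 12885 genes. Another took the 4 SFM and 2 SCM libraries of mSGc, with medium and log2 passage number as terms, over 12451 genes with 3 residual degrees of freedom. The SE was obtained from the log2 fold change and the F statistic. Alternatives were DESeq2 1.42.0, voom in limma 3.58.1, no TMM, other filters, other passage and medium terms, and leaving out libraries. On simulated counts with 200 genes changed, 200 (lines), 199 (medium) and 200 (passage) were recovered. Of the unchanged genes, 12 of 12765 (lines), 11 of 12223 (medium) and 9 of 12224 (passage) were called. Recovery of changes as small, and with as wide a spread, as those fitted for the cell cycle genes was not tested. The simulation therefore does not show that genes left uncalled are unchanged.

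The 36 genes, the lists of other cell cycle genes, the markers and the motifs were chosen with earlier results of these data known. Values in every library are given for 13 genes named in the design, for the 3 smallest p-values in a comparison with fewer than 2 calls, and for named regulators. From the other lists, up to 3 called genes per direction are named. Some genes of these lists are not reported here. Aurka was named after its values were seen, as were the genes listed as exceptions or examples. Promoter sequences are from RefSeq (GRCm38.p6), whereas the counts use mm9, and no positions were converted.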

Additional observations from a re-analysis of the deposited data

Results flagged for a closer look

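For 16 of the 36 genes the log2 ratio of SCM to SFM in CPM after TMM scaling had opposite signs at P10 and at P25. In TPM only 7 of these kept opposite signs (Rrm1, Rrm2, Tyms, Cdc6, Aurkb, Birc5 and Ube2c), and the other 9 had SCM above SFM at both passages, so their sign depended on the scaling. With 1 library per condition the difference between the passages was not tested. The values given are the log2 ratio at P25 minus that at P10, in CPM, and they were negative for 15 genes. Among the helicase subunits the difference was -0.61 for Mcm2, -0.75 for Mcm3 and -0.615 for Mcm7, and for the clamp Pcna it was -0.55. Among the genes of nucleotide supply it was -0.91 for Rrm1, -0.99 for Rrm2 and -1.27 for Tyms. Cdc6 had the largest difference, -2.34, and rested on 27 counts in P10 SFM against 180 in P10 SCM. Ccne1 was at -0.73. Among the mitotic genes the difference was -0.58 for Cdk1, -0.63 for Aurkb, -0.77 for Plk1, -1.03 for Birc5, -0.35 for Cdc20 and -0.50 for Ube2c. For E2f1 the difference was 0.11 in CPM, from -0.08 at P10 to 0.03 at P25.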

How the results depend on the processing

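The count of 0 genes called between the lines was 0 in the higher direction under every alternative run. In the lower direction it was 1 with DESeq2 (Cenpf), 1 without TMM factors (Cenpf), 1 with the P10 mSGc libraries only (Aurka, log2 fold change -1.15, edgeR adjusted p = 0.0482) and 1 with the SFM libraries only (Cenpf). Leaving out single libraries gave 0 to 1, with 1 without mSGc P25 SCM (Cenpf) and 1 without IMOK replicate 1 (Tyms). With DESeq2 and without IMOK replicate 1, added after seeing the data, it was 3. The cause of these moves was not tested, and the counts are not set against the share of all genes called under each alternative. Without TMM factors the median over all genes shifted by -0.107. For medium and passage the counts were 0 under every alternative run. The gap of mitotic over replication genes in IMOK replicate 1, 1.08 as a mean, was 1.40 with the median over genes, and the mSGc range of that gap, 0.589 as a mean, was 0.357.

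Some single genes changed sign: Cdkn1b between the lines was at -0.19 with the SFM libraries only, Mybl2 ran from -0.45 to 0.39 over single libraries left out, and for medium Cenpe ran from -0.086 to 0.84 and Kif11 from -0.066 to 1.10, in both cases lowest without P25 SCM. The labels share no replicate number between groups, and the fit that pairs the media by passage called 0 of the 36. Each mSGc condition is 1 library, and 3 residual degrees of freedom limit the fits of medium and passage.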
